A study of Mus musculus with 12 samples.

Results

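Genes were compared between the brains of mice of both Plat knockout strains, taken as the mean of the strains, and the brains of wild-type mice. Of 16209 genes tested, 548 had all 7 knockout libraries on one side of all 3 wild-type libraries, and these genes were chosen on the FPKM values of that same comparison. They made up 3.38% of the genes tested, 252 higher (1.55%) and 296 lower (1.83%) in the knockout libraries. The deposited table lists 27131 genes, and a mean of at least 0.5 FPKM over the 10 libraries was required for a gene to be tested. Values are FPKM, a count of fragments divided by transcript length and library size, and differences are given on the log2(FPKM + 0.1) scale as the mean of the Old and New group means minus WT. Because the comparison with WT set the choice, its values are given as a description and without a test.

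Polyadenylated RNA was sequenced from brains of 12 mice aged 6 weeks, with 4 mice to a genotype group. The WT group was C57BL/6 with an intact Plat gene and had been bought from a commercial breeder. The Old and New groups were 2 independent strains of Plat-/- mice on the same C57BL/6 background, raised under pathogen-free conditions, and they carried no other allele or treatment that the labels give. The labels give a purchase for WT alone, so genotype and origin of the animals cannot be told apart in a comparison with WT. Which part of Plat each strain lacks is not stated in the labels. Cerebral cortex is the labelled tissue, whereas the dissection took only olfactory bulb and cerebellum away from the brain. The neuronal gene Snap25 stood at 770.0 FPKM and the cortical gene Tbr1 at 26.04 FPKM over the 10 libraries. Markers of other regions were present as well, with Drd2 of striatum at 11.4 FPKM, Prkcd of thalamus at 17.7 FPKM and Th of dopamine neurons at 2.67 FPKM. Gabra6 of cerebellar granule cells was at 0.0648 FPKM, while other markers of cerebellum and olfactory bulb, Pcp2 and Cdhr1, were at 1.13 and 1.73 FPKM. In such bulk tissue, fewer cells of a type and less RNA per cell cannot be told apart.

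Plat encodes tissue-type plasminogen activator (tPA), a secreted serine protease. It cuts plasminogen to plasmin, the protease that dissolves fibrin, and serpins such as neuroserpin and plasminogen activator inhibitor 1 hold it in check. In brain it is made by neurons and by vascular and glial cells and is known for roles in synaptic plasticity, in signalling through receptors of the LDL receptor family and in permeability of the blood-brain barrier.

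Libraries WT 4 and Old 1 were left out of the choice of genes because they stood apart from the other 10. The Spearman correlation across genes was 0.959 to 0.972 among the 10 used, 0.923 to 0.934 for WT 4 with them and 0.931 to 0.943 for Old 1 with them, against 0.969 between WT 4 and Old 1. Both also deviated with GC content, genes under 40% GC by a median of -0.84 in WT 4 and -0.68 in Old 1 from the mean of the 10, and genes of at least 60% GC by 0.75 and 0.83. Values of this pair are given below as deposited, with that deviation in them. Since genes are not replicates, these coefficients only describe the libraries. FPKM holds no counts, so the absolute depth is unknown and no counting interval is given. Low values fell on steps that give the depth relative to WT 1, which ran from 0.998 to 2.18 among the 10 libraries. The Y-linked gene Ddx3y was above 1 FPKM in Old 4 (15.4) and New 1 (13.4) and in no WT library used. Xist, the RNA of the inactive X chromosome, was at 0.0188 and 0.0315 FPKM in those libraries and at 0.00152 FPKM in New 3, where Ddx3y was at 0. In the left-out WT 4 and Old 1, Ddx3y was at 6.51 and 8.22 FPKM and Xist at 0.0180 and 0.000188 FPKM. The labels give no sex.

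Plat itself had the clearest separation. Plat (chromosome 8, 22757727 to 22782844, plus strand, mm10, GENCODE M21, protein-coding) stood at 9.83, 8.01 and 8.94 FPKM in WT 1 to 3, 1.87, 1.39 and 2.09 in Old 2 to 4 and 2.82, 2.77, 3.15 and 2.77 in New 1 to 4. Every knockout library was below every WT library, and all 3 Old values were below all 4 New values. The mean of the strains was 26.1% of the WT mean, a difference of -1.93 (SE 0.11). The library left out of Old was low as well, with 1.68 FPKM in Old 1 and 6.93 in WT 4. Between the strains, which the choice did not set against each other, Old minus New was -0.67 (95% interval -0.95 to -0.39; limma, adjusted p = 0.298). In the list of 12 tested genes of the fibrinolysis system, the other 11 overlapped between knockout and WT. Neuroserpin (Serpini1) ranged over 57.1 to 63.5 FPKM in WT and 56.6 to 63.5 in the knockout libraries, protease nexin-1 (Serpine2), a serpin that inhibits thrombin and plasminogen activators, over 48.7 to 49.8 FPKM in WT and 47.3 to 53.01 in the knockout libraries, and urokinase (Plau) over 0.706 to 0.913 FPKM in WT and 0.675 to 1.00 in the knockout libraries. Lrp1, an endocytic receptor that clears tPA, ranged over 42.01 to 43.7 FPKM in WT and 41.4 to 45.3 in the knockout libraries. Of 26 genes for brain receptors and substrates of tPA, the laminin chain gene Lamb1 alone was on one side (3.85%, against 3.38% of all genes tested). Lamb1 stood at 4.03, 4.10 and 4.01 FPKM in WT 1 to 3, 3.59, 3.91 and 3.72 in Old 2 to 4 and 3.87, 3.88, 3.95 and 3.75 in New 1 to 4. The Lamb1 difference was -0.09 (SE 0.04), and the nearest libraries, New 3 and WT 3, lay close together.

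**Figure D1:**
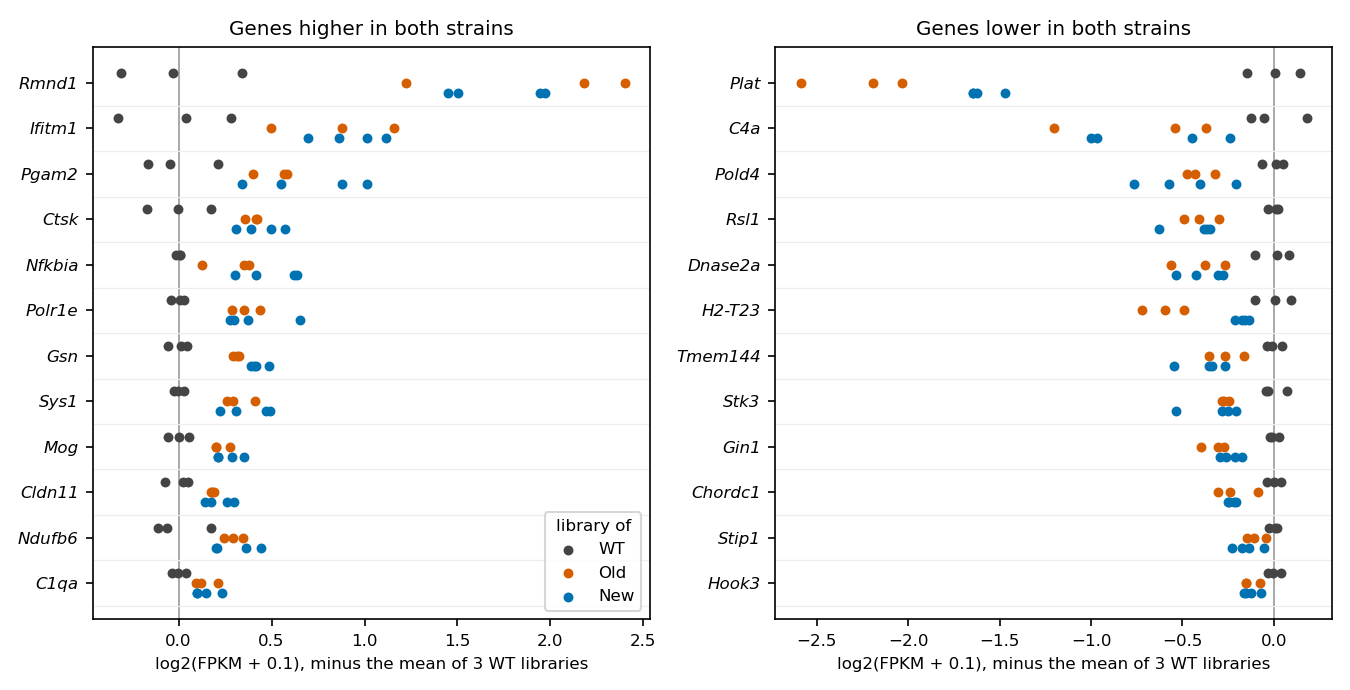
Each point is 1 library, drawn as its log2(FPKM + 0.1) minus the mean of 3 WT libraries, for 12 genes that lay higher (left) and 12 that lay lower (right) in every knockout library; grey is WT, orange Old and blue New. Plat and Rmnd1 lie farthest from WT (-1.93 and 1.82), whereas most of the others lie within 0.5 of it.

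The differences were small for most of the 548 genes. The median was 0.16 for the higher and -0.14 for the lower genes, against -0.0039 over all genes tested. In 160 of the 252 higher and 211 of the 296 lower genes the difference was under 0.2 in size. A size of 0.5 was reached by 10 higher and 21 lower genes, 5 and 5 of them protein-coding, and a size of 1 by 1 higher and 8 lower genes. Of the 548 genes, 485 were protein-coding, 26 were annotated as antisense RNAs and 16 as long intergenic RNAs. In 3 higher and 6 lower genes the mean of the lower group was under 0.5 FPKM, so these passed the filter through their higher group. At the edge of the rule, the lowest knockout value of Puf60 and its highest WT value were both 27.1 FPKM, and Puf60 counted as higher. Rad9, with values of 6.59 FPKM on both sides, overlapped. On the lower side Slmo2 (17.9 FPKM on both sides of the gap) counted and Tdrd3 (10.1 FPKM) did not.

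Across all genes, limma with Benjamini-Hochberg adjustment called 3 genes (0.0185%) for the mean of both strains against WT, while 1471 genes (9.08%) reached p under 0.05 before adjustment. The called genes were Plat, Gsn and Sycp1. Plat and Gsn are among the 548. Sycp1, a synaptonemal complex gene, is not, since its mean of 2.39 FPKM in Old stood beside 0.00392 FPKM in New and 0.00536 FPKM in WT. Plat and Gsn were used by the rule, so their calls add nothing to the choice.

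Old and New were then set against each other. Limma called 6 genes (0.037%) between the strains and 0 of the 548, and at an unadjusted p under 0.05 the counts were 760 genes (4.69%) and 21 of the 548 (3.83%). The rule itself limits how far the strains can differ among the 548, since both had to lie on the same side of WT, so these counts are no independent measure. No equality of the strains follows from them, since some intervals were wide and others, as for Gsn and Plat, excluded 0. The intervals are not adjusted for the number of genes tested. For Rmnd1 Old minus New was 0.22 (95% interval -0.41 to 0.84; limma, adjusted p = 0.991), and for Gsn it was -0.11 (95% interval -0.19 to -0.03; limma, adjusted p = 0.972).

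Among the higher genes, Gsn (gelsolin, chromosome 2, 35256380 to 35307892, plus strand), which severs and caps actin filaments and is abundant in oligodendrocytes, had one of the widest gaps. Gsn stood at 15.9, 15.2 and 16.3 FPKM in WT 1 to 3, 19.4, 19.9 and 19.7 in Old 2 to 4 and 21.1, 22.2, 20.7 and 20.9 in New 1 to 4. The groups did not overlap, and the Old values lay between WT and New. The difference was 0.37 (SE 0.03), 1.29-fold on the FPKM scale. The libraries left out, in which genes of high GC content stood high (Gsn has 57.1%), were both higher than all of these, with 28.4 FPKM in Old 1 and 25.1 in WT 4, so with all 12 libraries Gsn no longer lay on one side.

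Rmnd1 (chromosome 10, 4401915 to 4432388, minus strand), a nuclear gene for a protein of the mitochondrial inner membrane needed for mitochondrial translation, had the largest positive difference. Rmnd1 stood at 1.04, 0.628 and 0.783 FPKM in WT 1 to 3, 4.65, 3.98 and 2.00 in Old 2 to 4 and 3.43, 2.36, 2.45 and 3.37 in New 1 to 4. All WT values were near or under 1 FPKM and all knockout values at or above 2.00 FPKM, with a wide spread in Old. The difference was 1.82 (SE 0.25). In the libraries left out it was 1.91 FPKM in Old 1 and 1.77 in WT 4, almost equal. Rmnd1 overlaps the antisense gene Gm16153, and reads of the pair cannot be told apart without strand. The same limit holds for every gene that overlaps another on the other strand. Such genes made up 48.4% of the higher and 41.9% of the lower genes, against 47.6% of all genes tested.

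Ifitm1, Nfkbia, Ctsk and Sfpi1 are grouped by their known roles in immune cells or lysosomes, with no theme tested. These lay higher, whereas C4a (-0.68), H2-T23 (-0.39) and Dnase2a (-0.39), also immune or lysosomal genes, were among the lower genes. In the list of 20 interferon and antigen presentation genes Nfkbia was the 1 gene on one side (5%, against 3.38% of all genes tested). Of the 20 genes 12 lay above and 8 below WT. Ifitm1 (chromosome 7, 140967221 to 140969825, plus strand), an interferon-induced membrane protein that restricts virus entry and belongs to a family of similar genes, stood at 0.882, 0.662 and 1.06 FPKM in WT 1 to 3, 1.24, 1.65 and 2.03 in Old 2 to 4 and 1.64, 1.44, 1.83 and 1.96 in New 1 to 4. Old 2 was the lowest knockout library and WT 3 the highest WT library, and the difference was 0.88 (SE 0.17). The left-out libraries showed the same order, with 1.65 FPKM in Old 1 and 0.693 in WT 4. Nfkbia (chromosome 12, 55489410 to 55492647, minus strand), the inhibitor that holds NF-kappa-B in the cytoplasm and is itself induced by it, stood at 6.62, 6.52 and 6.62 FPKM in WT 1 to 3, 7.18, 8.44 and 8.60 in Old 2 to 4 and 8.81, 10.2, 10.3 and 8.15 in New 1 to 4. The WT libraries lay close to each other, and Old 2 was nearest to them. The Nfkbia difference was 0.39 (SE 0.08), with 8.96 FPKM in Old 1 and 5.72 in WT 4. Ctsk (chromosome 3, 95499256 to 95509362, plus strand), the lysosomal protease cathepsin K, stood at 1.34, 1.18 and 1.53 FPKM in WT 1 to 3, 1.84, 1.83 and 1.75 in Old 2 to 4 and 1.79, 1.94, 1.69 and 2.04 in New 1 to 4. All 7 knockout values were above the WT range, by a difference of 0.42 (SE 0.09). The left-out libraries were almost equal for Ctsk, with 1.60 FPKM in Old 1 and 1.59 in WT 4. Sfpi1, the myeloid transcription factor PU.1, stood at 0.737, 0.554 and 0.802 FPKM in WT 1 to 3, 0.993, 0.844 and 1.06 in Old 2 to 4 and 1.12, 1.08, 0.988 and 1.01 in New 1 to 4, low in every library, and differed by 0.48 (SE 0.13). Both left-out libraries were above all of these, with 1.65 FPKM in Old 1 and 1.32 in WT 4. In the list of 22 genes of microglia and complement, 1 gene was on one side (4.55%, against 3.38% of all genes tested). It was C1qa, a chain of the complement starter C1q, with a difference of 0.14 (SE 0.04). The left-out pair had the opposite order for C1qa, with 23.3 FPKM in Old 1 and 24.1 in WT 4. Microglial Cx3cr1 and P2ry12 overlapped, ranging over 7.91 to 7.92 FPKM in WT and 7.66 to 9.53 in the knockout libraries and over 11.9 to 14.6 FPKM in WT and 11.3 to 14.6 in the knockout libraries.

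Pgam2, the muscle form of the glycolytic enzyme phosphoglycerate mutase, stood at 1.70, 1.86 and 2.24 FPKM in WT 1 to 3, 2.93, 2.90 and 2.56 in Old 2 to 4 and 2.86, 3.98, 3.61 and 2.46 in New 1 to 4, with New 2 and New 3 highest, and differed by 0.61 (SE 0.14). Pih1d1, a subunit of the R2TP complex that works with the chaperone HSP90, differed by 0.44 (SE 0.10), and Polr1e, a subunit of RNA polymerase I, by 0.38 (SE 0.10). Polr1e stood at 1.02, 0.989 and 1.04 FPKM in WT 1 to 3, 1.27, 1.33 and 1.41 in Old 2 to 4 and 1.35, 1.26, 1.28 and 1.66 in New 1 to 4. Its WT values lay within 0.1 FPKM, New 4 was highest, and the left-out pair had the opposite order, with 0.894 FPKM in Old 1 and 1.26 in WT 4. Sys1, which helps bring proteins to the Golgi membrane, stood at 4.82, 4.71 and 4.65 FPKM in WT 1 to 3, 6.31, 5.67 and 5.81 in Old 2 to 4 and 6.59, 5.54, 6.68 and 5.88 in New 1 to 4, all knockout values above all WT values by 0.35 (SE 0.06). Other genes with large positive differences were Plxna4os3 (0.75), an RNA antisense to Plxna4, Pla2g4e (0.46), a cytosolic phospholipase A2, Tnfaip8l1 (0.45), Dnajc17 (0.41), Rnf135 (0.40), a ubiquitin ligase, and the connexin gene Gja6 (0.37). Plxna4os3, Pih1d1, Polr1e and Dnajc17 overlap genes on the other strand, and reads of the overlap cannot be assigned to either gene.

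Oligodendrocyte and myelin genes held more of the 548 genes than any other list examined, 7 of 31 tested (22.6%, against 3.38% of all genes), all higher. They were Gsn, Mog, Mag, Cnp, Cldn11, Olig1 and Tspan2. The list was written with some of these values already known, so its share is not independent evidence. The share of all tested genes on one side also differed by level. It was 2.21% at 0.5 to 2 FPKM, 4.62% at 10 to 50 FPKM and 4.54% at 50 FPKM or more. Mog (chromosome 17, 37010743 to 37023398, minus strand), a glycoprotein on the outer face of myelin, stood at 25.8, 27.9 and 26.9 FPKM in WT 1 to 3, 30.9, 32.5 and 30.9 in Old 2 to 4 and 32.7, 34.3, 31.1 and 31.1 in New 1 to 4. Among the libraries used, WT was always under 28 FPKM and knockout always over 30 FPKM, a difference of 0.25 (SE 0.04). The left-out libraries were both lower than all of these, with 25.5 FPKM in Old 1 and 17.9 in WT 4. With all 12 libraries Mog no longer lay on one side. Cldn11, which forms the tight junctions of myelin, stood at 54.2, 57.9 and 59.1 FPKM in WT 1 to 3, 64.7, 64.3 and 65.1 in Old 2 to 4 and 68.2, 70.2, 64.4 and 62.96 in New 1 to 4, again without overlap, and differed by 0.20 (SE 0.04). Cnp, an enzyme of oligodendrocyte cytoplasm, differed by 0.18 (SE 0.05), and Mag, an adhesion molecule of myelin, by 0.17 (SE 0.04). Olig1, a lineage transcription factor, differed by 0.12 (SE 0.05), and Tspan2, a tetraspanin, by 0.12 (SE 0.04).

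The list as a whole did not move one way. Of its 31 genes 17 lay above and 14 below WT, with a median of 0.064 (0.028 without WT 1 and 0.041 without Old 4), and limma called 1 (Gsn). Mbp, which encodes myelin basic protein, overlapped with WT and stood at 835 ± 5.00 FPKM in WT, 858 ± 49.4 in Old and 891 ± 49.9 in New (SD, n = 3, 3 and 4). The summed level of the list ran from 2145 to 2168 FPKM in WT, from 2165 to 2348 in Old and from 2213 to 2434 in New. In oligodendrocyte precursors 12 of 12 genes lay above WT, with a median of 0.092 (0.042 without WT 2), while 0 were on one side and 0 were called. Their summed level ran from 70.9 to 76.1 FPKM in WT, from 75.8 to 76.9 in Old and from 76.2 to 78.9 in New. Pdgfra, their defining receptor, stood at 8.25 ± 0.467 FPKM in WT, 9.14 ± 0.743 in Old and 8.68 ± 0.217 in New.

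Genes of oxidative phosphorylation and ribosomes exceeded the background share of 3.38% in their count on one side, with no gene called by limma. That background was higher for abundant genes, 4.62% at 10 to 50 FPKM and 4.54% at 50 FPKM or more. Of 75 nuclear genes of oxidative phosphorylation 5 were on one side (6.67%), all higher. They were Ndufb6 (0.30) and Ndufa7 (0.22) of complex I, Cyc1 (0.17) of complex III, Cox7a2 (0.15) of complex IV and Atp5g1 (0.19) of ATP synthase. The list had a median of 0.022 (0.014 without Old 3, 0.015 without WT 3 and 0.044 without WT 1), with 49 above and 26 below WT and 0 called. Of 78 ribosomal protein genes 6 were on one side, among them Rpl13 and Rps29 higher and Rpl21, Rpl23 and Rps12 lower, with 0 called and a median of 0.012. Rpl23 stood at 78.8, 86.8 and 77.3 FPKM in WT 1 to 3, 73.1, 74.6 and 73.5 in Old 2 to 4 and 73.6, 73.8, 68.9 and 74.3 in New 1 to 4, with New 3 lowest. Ribosomal protein genes have many near-identical pseudogenes, and their FPKM values are uncertain for that reason. In cholesterol synthesis 24 of 25 genes lay above WT with a median of 0.082, and 0 were called. Tm7sf2, a sterol reductase, was the 1 gene of that list on one side (4%, against 3.38% of all genes tested). Tm7sf2 stood at 3.63, 3.64 and 3.81 FPKM in WT 1 to 3, 4.06, 4.55 and 4.11 in Old 2 to 4 and 3.87, 4.53, 4.47 and 3.97 in New 1 to 4. The gap between the nearest libraries, WT 3 and New 1, was small, and the difference was 0.19 (SE 0.06).

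Among the lower genes, those with the largest differences were mostly scarce transcripts. Rnf227 stood at 1.84, 2.73 and 1.80 FPKM in WT 1 to 3, 0.331, 0.314 and 0.403 in Old 2 to 4 and 1.41, 0, 1.69 and 0.916 in New 1 to 4. It was listed at 0 in New 2, ran up to 1.69 FPKM in New 3 and had a difference of -1.94 (SE 0.76), so its size rests on a wide spread. Sap25, a partner of the Sin3 corepressor, stood at 1.95, 1.69 and 1.84 FPKM in WT 1 to 3, 1.35, 1.48 and 1.21 in Old 2 to 4 and 0.880, 0.148, 1.58 and 1.52 in New 1 to 4, lowest in New 2. C4a, a complement gene with the near-identical copy C4b, stood at 1.298, 1.03 and 1.09 FPKM in WT 1 to 3, 0.436, 0.854 and 0.748 in Old 2 to 4 and 0.532, 0.946, 0.806 and 0.518 in New 1 to 4, and the values of the pair are uncertain. Old 2 was the lowest library, and the difference was -0.68 (SE 0.23). The left-out pair had the opposite order for C4a, with 1.47 FPKM in Old 1 and 0.916 in WT 4. Rsl1, a zinc finger repressor known in mouse liver as a regulator of sex-limited genes, stood at 1.47, 1.53 and 1.51 FPKM in WT 1 to 3, 1.20, 1.11 and 1.04 in Old 2 to 4 and 1.16, 1.13, 1.14 and 0.938 in New 1 to 4. Its WT values lay within 0.1 FPKM of each other and all knockout values were below them, by -0.42 (SE 0.09).

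Pold4 (chromosome 19, 4231899 to 4233634, plus strand), the smallest subunit of DNA polymerase delta, was the lower gene with the largest difference among those above 5 FPKM in WT that the naming rule took, apart from Plat. Pold4 stood at 5.58, 5.14 and 5.41 FPKM in WT 1 to 3, 3.95, 4.27 and 3.83 in Old 2 to 4 and 3.12, 4.05, 3.58 and 4.64 in New 1 to 4. New 1 was lowest and New 4 nearest to WT, and the difference was -0.45 (SE 0.10), while the left-out libraries had 4.46 FPKM in Old 1 and 3.52 in WT 4. Stk3 (chromosome 15, 34875496 to 35178921, minus strand), the Hippo pathway kinase MST2, stood at 8.57, 9.31 and 8.66 FPKM in WT 1 to 3, 7.26, 7.45 and 7.31 in Old 2 to 4 and 7.43, 7.26, 6.07 and 7.66 in New 1 to 4, without overlap and with a difference of -0.29 (SE 0.07). In the left-out libraries, where genes under 40% GC stood low in general (Stk3 has 38.4%), it was low in both, with 4.25 FPKM in Old 1 and 4.27 in WT 4. Dnase2a, the lysosomal DNase II, stood at 1.37, 1.19 and 1.31 FPKM in WT 1 to 3, 1.06, 0.842 and 0.972 in Old 2 to 4 and 0.858, 1.05, 0.934 and 1.02 in New 1 to 4 and differed by -0.39 (SE 0.10). Tmem144 (-0.32), Gin1 (-0.28), Calml4 (-0.40), Cyp2s1 (-0.33), Armcx6 (-0.32), Zfp764 (-0.46) and Zfp773 (-0.30) were also lower. H2-T23, a nonclassical class I histocompatibility gene of a large family, stood at 0.701, 0.749 and 0.642 FPKM in WT 1 to 3, 0.384, 0.428 and 0.467 in Old 2 to 4 and 0.624, 0.586, 0.615 and 0.606 in New 1 to 4, with Old below New, and differed by -0.39 (SE 0.12). The pseudogene Hmga2-ps1 (-0.36) has a parent gene of similar sequence and is uncertain.

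Chaperone genes lay mostly below WT. Of 32 heat shock and chaperone genes 29 lay below, with a median of -0.061 (-0.060 in Old and -0.059 in New, which share the WT libraries), and 0 were called. On one side were 2 genes (6.25%, against 3.38% of all genes tested). They were Chordc1 and Stip1, both cochaperones of HSP90, and Stip1 also binds HSP70. Chordc1 stood at 29.2, 29.99 and 28.4 FPKM in WT 1 to 3, 24.7, 27.5 and 23.6 in Old 2 to 4 and 25.1, 25.3, 24.6 and 24.5 in New 1 to 4, with Old 3 nearest to WT, and differed by -0.22 (SE 0.04). Stip1 stood at 56.9, 58.2 and 58.7 FPKM in WT 1 to 3, 52.4, 53.7 and 56.1 in Old 2 to 4 and 51.3, 52.6, 49.5 and 55.8 in New 1 to 4, with Old 4 and New 4 nearest to WT, and differed by -0.12 (SE 0.04). Both left-out libraries were far lower for Chordc1, which has 35.7% GC, with 14.5 FPKM in Old 1 and 12.97 in WT 4. With WT 4 and Old 1 included, 14 of the 32 genes lay below WT and the median was 0.0023. Among other genes of the list, Ahsa1, an activator of HSP90, stood at 45.9 ± 2.19 FPKM in WT, 43.00 ± 0.600 in Old and 44.7 ± 1.48 in New and Hsph1, a partner of HSP70, at 72.8 ± 3.48 FPKM in WT, 69.9 ± 1.84 in Old and 69.4 ± 2.02 in New, both with overlap.

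The promoters of Chordc1 and Stip1, 250 bases before and 50 after the annotated start, are printed because these 2 genes of the chaperone list lay on the same side and the heat shock factor binding element is the sequence known to control such genes. They are RefSeq sequences of build GRCm38.p6, written from 5′ to 3′ on the strand of the gene. Capitals mark the stretch covered by matches to the heat shock element, 3 alternating 5-base units, searched on both strands.
Chordc1 promoter (chr9:18292017-18292316, plus strand): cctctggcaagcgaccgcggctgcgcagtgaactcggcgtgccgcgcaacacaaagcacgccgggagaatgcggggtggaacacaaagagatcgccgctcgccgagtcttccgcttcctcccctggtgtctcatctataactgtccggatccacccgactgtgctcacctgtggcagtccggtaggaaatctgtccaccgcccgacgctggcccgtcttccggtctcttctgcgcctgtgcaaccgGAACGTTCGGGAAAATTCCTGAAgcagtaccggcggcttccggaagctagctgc
Stip1 promoter (chr19:7039977-7040276, minus strand): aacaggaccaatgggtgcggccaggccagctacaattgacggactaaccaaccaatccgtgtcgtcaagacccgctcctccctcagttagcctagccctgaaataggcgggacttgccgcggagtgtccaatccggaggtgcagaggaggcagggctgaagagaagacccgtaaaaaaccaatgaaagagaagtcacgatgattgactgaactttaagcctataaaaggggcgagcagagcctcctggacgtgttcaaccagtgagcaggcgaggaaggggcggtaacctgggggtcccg
Overlapping matches covered 1 stretch in the Chordc1 promoter, around its start, and none was found in the Stip1 window. Such a match is a description and not a bound site. It was found for 2 of 214 lower genes with a promoter in the table (0.935%), 1 of 185 higher genes (0.541%) and 0.592% of 11486 tested genes. The sterol regulatory element TCACNCCAC, searched on both strands, was in 6 of 185 higher (3.24%) and 3 of 214 lower genes (1.40%), against 1.37% of tested genes, and not in the window of Tm7sf2. The cyclic AMP response element TGACGTCA was in 3.78% and 2.80%, against 3.44%. The glucocorticoid response element was in 0 of 185 and 1 of 214 genes, against 0.444%. Over all 32851 promoters of the table, whether or not the gene was tested, the shares were 1.24% (sterol), 0.603% (heat shock), 1.79% (cyclic AMP) and 0.475% (glucocorticoid).

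Several lists had a median away from 0 with few or no genes on one side. Of 11 genes of dopamine, serotonin and noradrenaline neurons 9 lay below WT, with a median of -0.22, 0 on one side and 0 called. The list includes Drd2, named above as a marker of striatum, and its difference of -0.22 is the median. Drd2 ranged over 11.3 to 13.6 FPKM in WT and 9.43 to 12.1 in the knockout libraries. Th, which makes the dopamine precursor, stood at 3.35 ± 0.446 FPKM in WT, 2.17 ± 1.02 in Old and 2.54 ± 0.443 in New (SD, n = 3, 3 and 4), the dopamine transporter Slc6a3 at 2.40 ± 0.302 FPKM in WT, 1.08 ± 1.03 in Old and 1.88 ± 0.567 in New and the serotonin-making Tph2 at 1.58 ± 1.08 FPKM in WT, 0.535 ± 0.437 in Old and 0.546 ± 0.460 in New. Their spread within Old was wide. The summed level of the list, Drd2 included, ran from 67.1 to 69.1 FPKM in WT and from 53.0 to 66.2 FPKM in the knockout libraries. These did not overlap. The left-out WT 4 was within the knockout range for Th (2.05 FPKM) and Slc6a3 (0.954 FPKM), Tph2 stood at 0.226 FPKM there, and Old 1 lay above WT 4 in 6 of the 11 genes. With all 12 libraries 4 lay above and 7 below WT, with a median of -0.10. Of 20 choroid plexus and ependymal genes 15 lay below WT, with a median of -0.14. The median was -0.23 without WT 3 and -0.091 without WT 2, and with all 12 libraries 10 lay above and 10 below, with a median of -0.0050. Old 1 lay above WT 4 in 20 of the 20. Calml4, the 1 gene of this list on one side (5%, against 3.38% of all genes tested), stood at 2.52, 2.59 and 2.37 FPKM in WT 1 to 3, 2.00, 2.00 and 1.38 in Old 2 to 4 and 2.23, 1.74, 1.87 and 2.02 in New 1 to 4. Summed over the list the groups overlapped, at 343 to 433 FPKM in WT and 335 to 424 FPKM in the knockout libraries, and transthyretin (Ttr), its most abundant gene, ranged over 188 to 262 FPKM in WT and 196 to 262 in the knockout libraries. Of 31 immediate early genes, which neurons induce on activity, 25 lay above WT, with a median of 0.14 (0.017 in Old and 0.30 in New). Nptx2, a secreted pentraxin at excitatory synapses, was the 1 gene of that list on one side (3.23%, against 3.38% of all genes tested). Nptx2 stood at 7.60, 9.03 and 9.17 FPKM in WT 1 to 3, 11.1, 10.9 and 9.47 in Old 2 to 4 and 10.5, 10.4, 12.1 and 9.59 in New 1 to 4. Fos ranged over 5.37 to 23.7 FPKM in WT and 5.69 to 24.2 in the knockout libraries. The median moved with single libraries, since without WT 1 17 genes lay above and 14 below with a median of 0.0012, and without WT 3 the median was 0.30. It was 0.24 without New 3, 0.091 without Old 4 and 0.068, with 18 above and 13 below, without both Old 4 and New 1. Over the 35 lists, 17 held at least 1 of the 548 genes and 18 held none, and 32 of 779 listed genes (4.11%, against 3.38% of all genes tested) were among the 548. The lists without one included astrocytes, endothelium, mural cells, cortical layers, striatum and the receptors for glutamate and GABA.

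**Figure D2:**
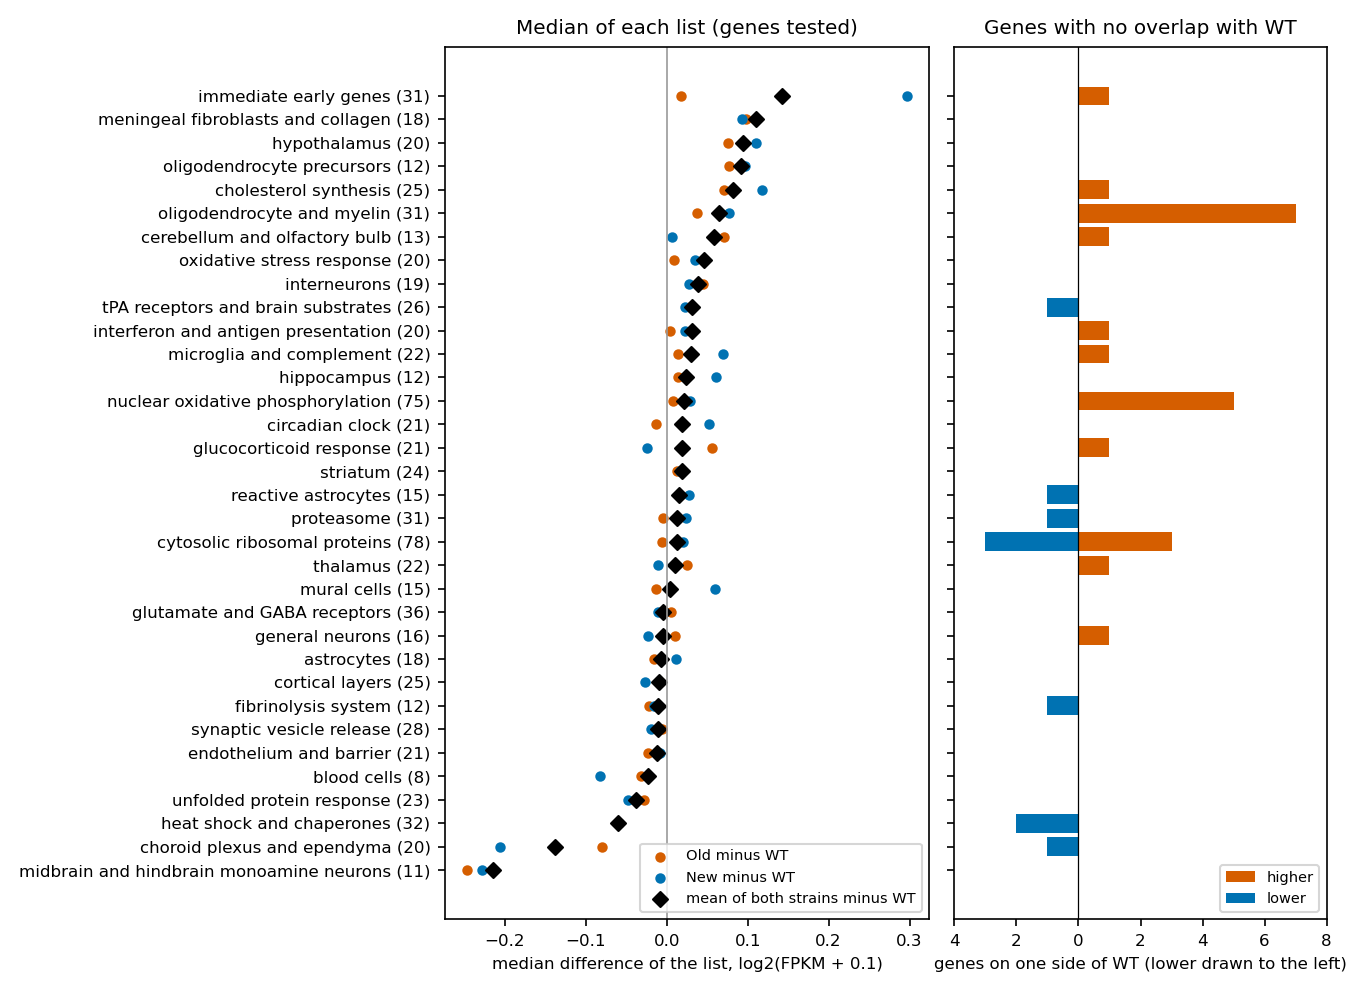
Left, the median difference from WT of each of 34 gene lists on the log2(FPKM + 0.1) scale, with the number of genes tested in parentheses, for the mean of both strains (black), Old (orange) and New (blue), which share the WT libraries; right, the number of genes of each list with no overlap between knockout and WT, higher drawn to the right and lower to the left. Oligodendrocyte and myelin genes hold 7 and oxidative phosphorylation genes 5 genes on the higher side, and the medians run from -0.22 to 0.14.

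The 2 directions differed in the base composition of their transcripts, a property that the choice did not use. The median GC content was 54.6% for higher and 44.2% for lower genes, against 49.4% of all tested genes. Under 40% GC, 0.298% of 1006 genes were higher and 4.77% lower. Between 55 and 60% GC, 3.61% of 2686 genes were higher and 0.596% lower, and at 60% or more 2.81% of 713 genes were higher and 0 lower. The libraries moved with this. Genes of at least 60% GC deviated from the 10-library mean by a median of -0.054 to -0.018 in WT libraries and -0.017 to 0.053 in knockout libraries. These did not overlap, but the nearest libraries were almost level, WT 2 at -0.0181 and Old 4 at -0.0175. Genes under 40% GC deviated by 0.021 to 0.052 in WT and -0.081 to 0.033 in knockout libraries, which overlapped. With the trend on GC removed from each library, 214 genes lay higher and 208 lower, and 139 and 156 of these were among the 252 and 296. All named genes with a difference over 0.4 in size other than Chrna6 kept their side, as did Gsn, Mog, Cldn11, Chordc1 and Stip1. C1qa, Gng13, Eno2, Rps29, Psmc6, Hook3, Tm2d2, Whsc1l1, Puf60 and Slmo2 did not.

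**Figure D3:**
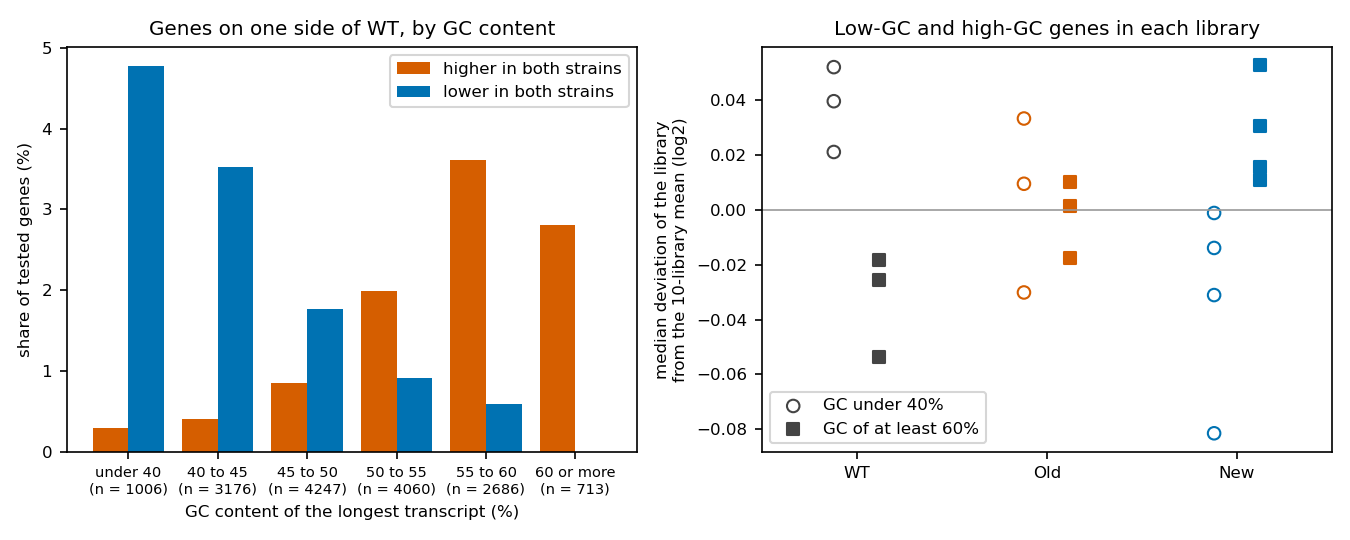
Left, the share of tested genes that were higher (orange) or lower (blue) in every knockout library, in 6 bins of transcript GC content with the number of genes tested; right, the median deviation of each library from the 10-library mean (log2) for genes under 40% GC (open circles) and of at least 60% GC (filled squares). The share of higher genes goes from 0.298% to 3.61% with GC content and that of lower genes from 4.77% to 0. The 3 WT libraries lie below all 7 knockout libraries for genes of high GC content, with WT 2 and Old 4 almost level.

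By position, genes on one side were spread over all autosomes and the X chromosome. Within 10 Mb of Plat, 108 other genes were tested, and 2 were higher and 5 lower (6.48%, against 3.38% of all genes tested). The lower genes were Chrna6, a nicotinic receptor subunit of dopamine neurons, Atp11a, a phospholipid flippase, the microtubule adaptor Hook3, Whsc1l1 (Nsd3), a histone methyltransferase, and the noncoding Gm16725. The higher genes were Gpr124 (Adgra2), a receptor needed for vessel growth in the brain, and Tm2d2. Chrna6, Hook3, Whsc1l1 and Tm2d2 did not keep their side with the GC trend removed. Chrna6 stood at 0.693, 0.713 and 0.811 FPKM in WT 1 to 3, 0.188, 0.256 and 0.592 in Old 2 to 4 and 0.590, 0.690, 0.450 and 0.515 in New 1 to 4, low in all libraries and without overlap only by a narrow margin, with a difference of -0.69 (SE 0.26). Its mean was 0.739 FPKM in WT and 0.453 FPKM over the 2 strains, so it passed the filter of 0.5 FPKM through WT. Atp11a stood at 5.35, 5.07 and 5.16 FPKM in WT 1 to 3, 4.28, 4.80 and 4.91 in Old 2 to 4 and 4.75, 4.79, 4.84 and 4.74 in New 1 to 4 and differed by -0.14 (SE 0.05). Gpr124 stood at 1.76, 1.83 and 1.84 FPKM in WT 1 to 3, 2.03, 1.94 and 2.04 in Old 2 to 4 and 2.23, 2.16, 2.41 and 2.18 in New 1 to 4 and differed by 0.21 (SE 0.06). All 7 knockout values were above the WT range for Gpr124, with Old below New.

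Chromosome 9 had the highest share of lower genes among the autosomes, 29 of 898 (3.23%, against 1.83% of all genes tested). Chromosome 17 had the highest share of higher genes, 26 of 730 (3.56%, against 1.55% of all genes tested). Both were picked as the extremes of the autosomes. On the X chromosome 19 of 551 genes were lower (3.45%, against 1.83%) and 3 higher (0.544%, against 1.55%). Ddx3x, an RNA helicase gene with a Y-linked partner, was chosen after its values were seen. It stood at 67.5, 68.5 and 67.1 FPKM in WT 1 to 3, 64.03, 63.8 and 54.1 in Old 2 to 4 and 52.8, 64.9, 56.1 and 65.6 in New 1 to 4. The lowest values were those of New 1, Old 4 and New 3, the libraries with almost no Xist. Eif2s3x, a translation initiation factor gene with a Y-linked partner, showed the same at 45.3, 46.5 and 42.8 FPKM in WT 1 to 3, 42.4, 42.6 and 28.6 in Old 2 to 4 and 27.2, 42.3, 39.4 and 42.7 in New 1 to 4, and was also chosen after its values were seen. The part of sex in the X-linked genes was not tested beyond the fit with a term for libraries with Ddx3y, in which limma called Plat and Gsn.

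WT 4 and Old 1, the pair left out, offered values that the choice had not used, 1 library against 1 and therefore without a test. Over all tested genes Old 1 lay above WT 4 in 75.3%, with a median of 0.13. Among the 252 higher genes it lay above in 83.7% (211; exact 95% binomial interval 78.6 to 88.1%), and among the 296 lower genes it lay below in 18.2% (54; 14.01 to 23.1%), where 23.9% of all tested genes did. The intervals treat genes as independent, which they are not. Quantile normalization removed the shift between the libraries, and then 54.0% of higher and 50.3% of lower genes kept their direction, beside 50.2% and 48.8% of all genes. With the GC trend removed the shares were 62.3% and 52.0%, beside 51.8% and 48.2%.

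**Figure D4:**
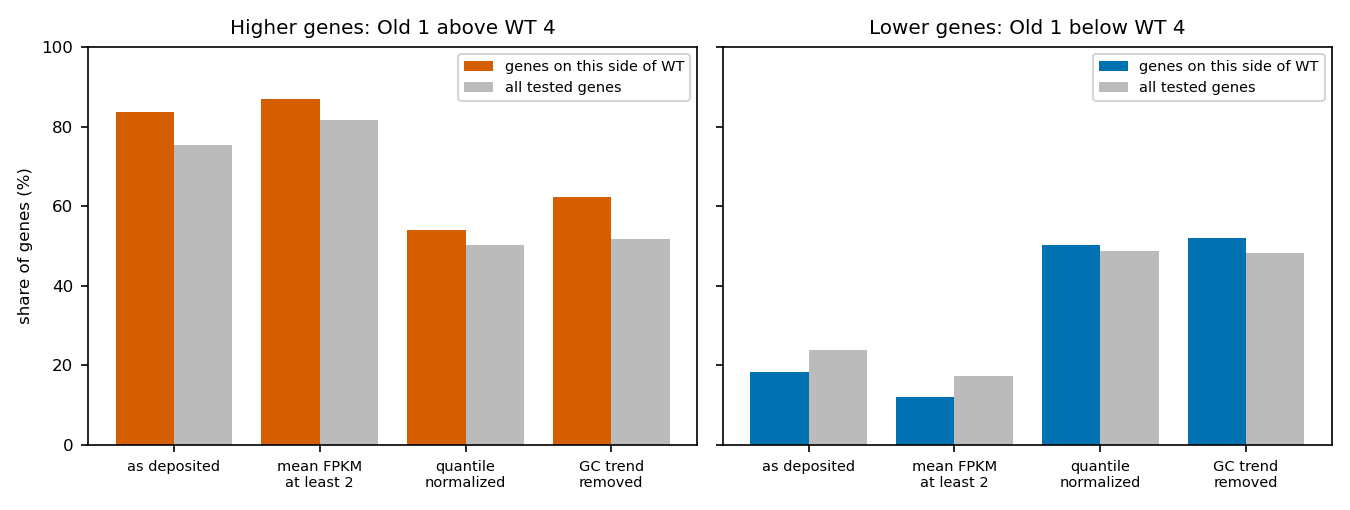
Share of genes in percent for which Old 1 lay above WT 4 (left, for the 252 higher genes) or below it (right, for the 296 lower genes), with the same share over all tested genes in grey, for values as deposited, for genes of at least 2 FPKM, after quantile normalization over 12 libraries and with the GC trend removed. As deposited the lower genes stand at 18.2%, under the 23.9% of all genes, and after normalization both directions lie near 50%, with 62.3% for higher genes when the GC trend is removed.

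With all 12 libraries in the comparison, 46 higher and 13 lower genes had no overlap. Plat, Rnf227, H2-T23 and Hmga2-ps1 were among the lower, and Rmnd1, Ifitm1, Ctsk, Nfkbia, Ndufb6, Cldn11, Atp5g1 and Adarb1, which encodes an RNA-editing deaminase, among the higher genes that the naming rule took. Of these 59 genes, 35 higher and 13 lower also kept their side with the GC trend removed.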

How the data were processed

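Polyadenylated brain RNA was made into libraries with a kit that does not mark strand and sequenced in pairs, 4 samples to a lane, per the labels' protocols; the labels' description as depleted of ribosomal RNA differs. The authors deposited gene-level FPKM in a single table, 1 column to a library. The tools, per the submitters' processing notes, were FastQC, Cufflinks, Cuffdiff 2.1.1, TopHat2 2.0.9 and Bowtie2 2.1.0, on mm10. The gene annotation and the scaling between libraries were not given in the sources used here. By its method Cuffdiff estimates how reads divide between transcripts, so near-identical copies are uncertain, and a gene listed at 0 may be a failed estimate.

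Samples were grouped by title, as WT 1 to 3, Old 2 to 4 and New 1 to 4; Old and New numbers follow accession order. Per the labels each library is from a different mouse. Genes with a mean of at least 0.5 FPKM were analysed as log2(FPKM + 0.1), which understates changes of scarce genes. limma 3.58.1 in R 4.3.3 fitted the 3 groups together (trended empirical Bayes, Benjamini-Hochberg over 16209 genes, threshold 0.05), tested on simulated data. Sums of FPKM ran from 385096 to 527104 among the 10 libraries. Row names were matched to GENCODE M21 by symbol (20672), Ensembl identifier (3914) or synonym (1866); 617 found no match, 37 were ambiguous and 25 had become dates. GC content of the longest transcript was known for 98.0% of tested genes.

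The genes, the 35 lists and the rules were chosen with earlier results of these data known. Named were Plat, the 15 largest differences in each direction among genes with a symbol and at least 1 FPKM, the 10 widest gaps, up to 3 genes of each list, genes within 10 Mb of Plat and those nearest the edge of the rule. Genes of the lists that are named as markers, and genes marked in the text as picked later, fall outside this rule. Alternatives changed scaling, filter, pseudocount (0.01 and 1), libraries, library weights, grouping and the GC trend.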

Additional observations from a re-analysis of the deposited data

Results flagged for a closer look

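In the New group of 4 libraries, 60 named genes were examined for a library far from the other 3, measured as the gap to its nearest neighbour divided by the whole range of the group. The ratio was 0.875 for Plat, where New 3 was highest, 0.831 for Dnajc17, where New 4 was highest, and 0.864 for Rsl1, where New 4 was lowest. It was 0.870 for Rpl23, where New 3 was lowest, and 0.949 for Gm16725, where New 4 was highest. Chance alone flags about 1 in 20 groups, and 5 of 60 were seen here. All 4 New values of each of these genes lay on the same side of WT, which the rule required of every gene examined.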

How the results depend on the processing

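With all 12 libraries 46 genes lay higher and 13 lower, and without Old 4 and New 1 the counts were 482 and 477. Fewer libraries leave fewer chances to overlap, so counts without 1 library ran from 279 to 807 (higher) and from 331 to 1189 (lower), most without WT replicate 3. Filters, median ratio scaling, quantile normalization and the GC trend gave counts within 1.5 times. The limma count for the mean of both strains went from 3 to 5 with no filter, to 9 without Old 4 and New 1, and ran from 3 to 7 without 1 library. An added fit with the GC trend removed, chosen after seeing the data, called 4. Plat was called in every alternative run and Gsn in all but that with 12 libraries. Among the 548 genes, calls between Old and New ran from 0 to 1 without 1 library (1 without New replicate 2). The share of higher genes with the same direction in Old 1 against WT 4 was 54.0% after quantile normalization and 62.3% with the GC trend removed, and that of lower genes 12.1% at a mean of at least 2 FPKM, 50.3% and 52.0%. Of 1020 values for 60 named genes, 977 moved by less than the spread between replicates, 40 by more, and 3 turned, all with 12 libraries: Psmc6 (0.021), Hook3 (0.045) and Whsc1l1 (0.022); the cause was not tested. Of 665 list medians 636 moved by less than that spread, but 65 turned sign, in 22 of the 35 lists. With all 12 libraries 12 lists turned, among them heat shock (0.0023) and unfolded protein response genes (0.019), which turned in no other alternative. FPKM without counts limits what can be said of scarce genes. No paired analysis was possible because the replicate numbers of Old and New were given in accession order and pair no mice.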

Other observations

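The genes below were chosen after their values were seen, among those that had no overlap when WT 4 and Old 1 were included. Both genes for cytoplasmic actin, the monomer of actin filaments, lay above WT in all knockout libraries. Actb stood at 491, 489 and 489 FPKM in WT 1 to 3, 553, 535 and 516 in Old 2 to 4 and 514, 519.7, 518 and 523 in New 1 to 4, a difference of 0.10 (SE 0.03), and the left-out pair had 541 FPKM in Old 1 and 485 in WT 4. Actg1 stood at 128, 124 and 128 FPKM in WT 1 to 3, 132, 140.5 and 136 in Old 2 to 4 and 133, 137, 135 and 134 in New 1 to 4, a difference of 0.10 (SE 0.03), and the left-out pair had 142 FPKM in Old 1 and 106 in WT 4. Nfkb1, a subunit of NF-kappa-B, stood at 3.67, 3.74 and 3.62 FPKM in WT 1 to 3, 3.85, 3.89 and 3.85 in Old 2 to 4 and 3.83, 3.98, 3.81 and 4.02 in New 1 to 4, all knockout values above all WT values by 0.08 (SE 0.04), with 4.11 FPKM in Old 1 and 3.37 in WT 4.

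Transcripts not annotated as protein-coding made up most of the lower genes with a difference of at least 0.5 in size, 16 of 21 (76.2%), and 385 of the 465 tested genes with a difference of that size (82.8%) were not protein-coding either. Gm5512, a transcribed pseudogene, stood at 5.80, 5.94 and 4.85 FPKM in WT 1 to 3, 1.63, 2.15 and 3.98 in Old 2 to 4 and 2.79, 3.13, 3.48 and 2.69 in New 1 to 4, with Old 4 nearest to WT and a difference of -1.005 (SE 0.22). Gm12236, an antisense RNA, stood at 7.90, 6.17 and 7.67 FPKM in WT 1 to 3, 3.19, 0.769 and 4.69 in Old 2 to 4 and 3.00, 5.45, 4.66 and 2.74 in New 1 to 4, with Old 3 far below the other libraries and a difference of -1.26 (SE 0.45). The long intergenic RNA Gm13830 stood at 3.33, 4.44 and 6.29 FPKM in WT 1 to 3, 2.95, 0.603 and 2.92 in Old 2 to 4 and 2.65, 2.75, 1.04 and 3.26 in New 1 to 4, lowest in Old 3 and New 3, and differed by -1.15 (SE 0.49).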
